A study of Mus musculus with 8 samples.

Results

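The data described here are the array probes aimed at intergenic long non-coding RNA (lincRNA) regions of the mouse genome, measured in liver after knockdown of Raly. A probe belonged to the set if its name in the scanner files was a stretch of genome coordinates, with or without the word lincRNA before it, in place of a gene name. By that rule 16194 of the 55681 non-control probes were members, and they covered 4610 targets, each a region read on 1 strand. The targets came from 3543 regions, of which 1067 had probes on both strands and 2476 on a single strand. A target had between 1 and 10 probes, with a median of 3. Positions follow the scanner files, which use mouse build mm9 (NCBI37), and 118 member probes had no position there.

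RNA came from livers of bl6 mice, 12 weeks old and fed chow. On 4 arrays the mice had received the adenoviral vector pblockITcontrol, and on 4 the vector pblockITshRaly, whose short hairpin RNA targets Raly, each at a dose of 2e+09 with no unit stated. Livers were taken on day 6. Both groups therefore carried a virus, and the comparison is between 2 viruses, not between virus and none. Nothing in the labels says that each array is a separate mouse. The spread behind every p-value is that among these samples and may be technical. Whole liver is a mixture, so fewer cells of a type and less RNA per cell cannot be told apart.

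Long intergenic non-coding RNAs are transcripts made from stretches between protein-coding genes. Many were first recognised by the chromatin marks of an active promoter followed by those of a transcribed body. They are usually spliced and polyadenylated, are present at lower levels than messenger RNAs and differ strongly between tissues. Some act in the nucleus by holding proteins at genes. LeXis, a liver lncRNA encoded beside Abca1, acts through Raly, an RNA-binding protein of the hnRNP family, in the control of cholesterol synthesis genes.

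Strand was the first property to be read from the data, because a region with no gene name has no known strand of transcription. In 100 places the array carried 2 member probes that read the same 60 bases on opposite strands. Detection means here that the scanner software marked the spot as well above background, and a probe was called detected if that held on at least 4 of the 8 arrays. Both strands were detected at 5 of the 100 places, a single strand at 33 and neither at 62. At 20 of them a probe was well above background on all 8 arrays while its exact complement was so on none. Of these 20 pairs, 3 are shown as examples, chosen after their values were seen. Which transcript gave the signal was not tested. Capitals mark the 7 bases at the 5′ end of the forward probe and their complement at the 3′ end of the reverse probe.
chr12:82501144-82501203 forward, 8 of 8 arrays: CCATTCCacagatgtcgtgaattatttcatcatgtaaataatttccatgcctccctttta
chr12:82501144-82501203 reverse, 0 of 8 arrays: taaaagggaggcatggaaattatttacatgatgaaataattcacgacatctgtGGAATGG
chr14:67588801-67588860 forward, 8 of 8 arrays: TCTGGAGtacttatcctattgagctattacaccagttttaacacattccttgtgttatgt
chr14:67588801-67588860 reverse, 0 of 8 arrays: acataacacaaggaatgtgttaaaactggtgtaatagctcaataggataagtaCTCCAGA
chr1:71940191-71940250 forward, 8 of 8 arrays: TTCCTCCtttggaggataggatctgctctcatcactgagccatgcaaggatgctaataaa
chr1:71940191-71940250 reverse, 0 of 8 arrays: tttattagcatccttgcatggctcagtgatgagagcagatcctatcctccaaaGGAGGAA

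Levels are given as log2 of the processed signal minus the array's own 75th percentile. The forward probe of the chr12 pair lay at 5.12, 5.17, 4.87 and 5.18 in the controls and at 4.73, 5.23, 4.97 and 5.05 in the shRaly arrays. The groups overlapped, and the log2 fold change was -0.09 ± 0.13 (SE, n = 4 per group, limma adjusted p = 0.80). The forward probe of the chr1 pair lay at 2.11, 2.63, 2.51 and 2.09 in the controls and at 1.58, 1.76, 1.62 and 1.55 in the shRaly arrays. Every shRaly array was below every control array there, but the difference of -0.71 ± 0.14 did not pass the adjusted threshold of 0.05 (adjusted p = 0.067). When pairs of opposite-strand probes that overlap by at least 30 bases were counted, 162 of 1677 pairs (9.66%) had both strands detected, 581 (34.6%) a single strand and 934 (55.7%) neither. Counted by region, with any probe of a strand enough, 401 of the 1067 regions with both strands (37.6%) had both detected, 450 (42.2%) a single one and 216 (20.2%) neither.

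Most member probes were not detected in liver. Of the 16194, 9498 (58.7%) were well above background on no array, 2176 (13.4%) on 1 to 3 arrays, 1247 (7.70%) on 4 to 7 arrays and 3273 (20.2%) on all 8. Probes with a gene symbol were detected more often, with 17498 of 31400 (55.7%) on all 8 arrays. By target, 2294 of the 4610 (49.8%) had at least 1 probe detected on 4 or more arrays. Among the 3920 targets with 2 probes or more, every probe was detected in 418, none in 1855 and some but not others in 1647. The share of member probes well above background was 30.1%, 27.8%, 27.5% and 29.7% on the control arrays, and 30.4%, 23.2%, 28.3% and 28.6% on the shRaly arrays. The groups overlapped, and shRaly replicate 2 was the lowest of the 8, for gene symbol probes too (57.5%, against 60.2% to 62.3% on the others).

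The label intergenic was checked against the positions of the gene probes on the same array. Of the 4610 targets, 535 (11.6%) contained a probe of a named gene on their own strand and 307 (6.66%) held one on the opposite strand only. The named genes inside targets were mostly of 2 kinds in a RefSeq gene table of a later build, used for names only: 224 lncRNA genes and 202 protein-coding genes. Detection was higher in the targets with a named gene on the same strand, at 38.7% of their probes, than in those with one on the opposite strand (24.3%) or with none (26.7%). For 76 member probes the array carried a second probe of the same 60 bases under another name. The pair fell on the same side of the detection rule in 73 of 76 cases. Where both were on all 8 arrays (30 pairs), their log2 fold changes differed by a median of 0.06 and at most 0.29.

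Detection also followed the distance and strand of the nearest gene probe. Within 2 kb and on the gene's strand, 480 of 1108 member probes (43.3%) were detected, against 216 of 1067 (20.2%) on the opposite strand. At 2 to 10 kb the shares were 39.0% of 1750 and 24.9% of 1542, and beyond 100 kb they were 22.3% of 1033 and 22.8% of 984. The strand therefore separated the shares near genes and not far from them. These shares are descriptions over probes, and several probes share a target. Among chromosomes, the detected share ran from 21.2% of 736 probes on chromosome 9 to 34.7% of 717 on chromosome 14, with 23.4% of 577 on the X. The GC content of the probes was 43.0% ± 6.90 (SD, n = 9498) for those on no array and 46.5% ± 9.23 (n = 3273) for those on all 8. The hexamer AATAAA, the usual polyadenylation signal, was searched as the probe reads, and its complement TTTATT was counted separately. AATAAA was in 634 of 16194 member probes (3.92%) and TTTATT in 490 (3.03%), with 4.49% and 3.45% among the probes on all 8 arrays.

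**Figure D1:**
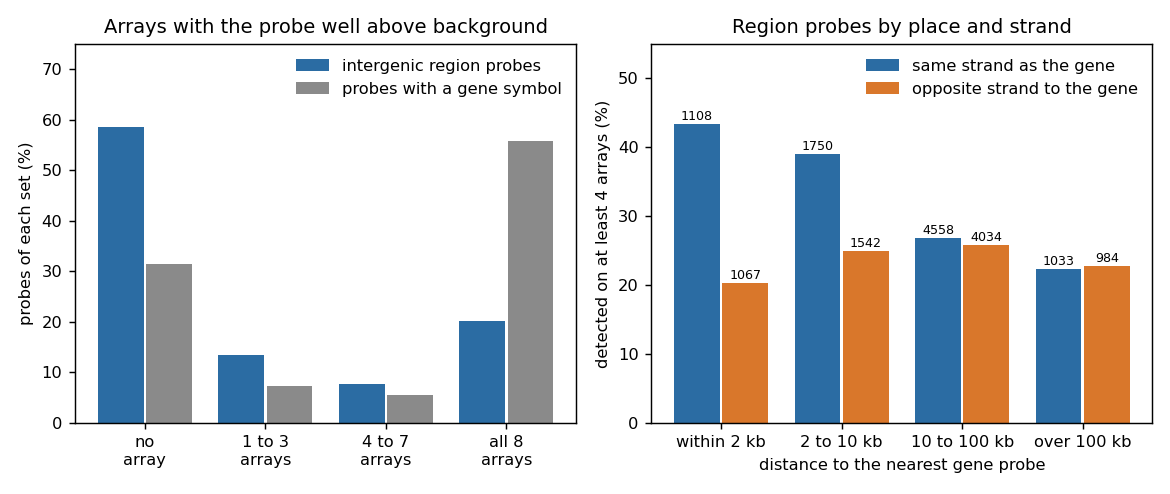
Left, the percentage of intergenic region probes (blue) and of probes with a gene symbol (grey) that were well above background on no array, 1 to 3, 4 to 7 or all 8 arrays. Right, the percentage of region probes detected on at least 4 arrays by distance to the nearest gene probe and by strand, with the number of probes above each bar: within 2 kb the shares are 43.3% on the gene's strand and 20.2% on the other, beyond 100 kb 22.3% and 22.8%.

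The knockdown itself was read on the 1 Raly probe of the array, at chr2:154692867-154692926. It lay at 3.44, 3.19, 3.51 and 3.60 in the controls and at 2.48, 3.13, 2.65 and 2.76 in the shRaly arrays. The groups did not overlap, although shRaly replicate 2 came close to the lowest control, and the mean was 62.5% of the control (log2 fold change -0.68 ± 0.15, limma adjusted p = 0.097, not past the threshold). Of 46 cell type markers in 8 lists, none passed the threshold, and the lists' median log2 fold changes ran from -0.31 (B cells, 3 genes) to 0.10 (T and NK cells). All 10 hepatocyte markers were detected on all 8 arrays. The summed level of the 7 endothelial markers, on the linear scale, was 54.3 to 60.9 in the controls and 44.7 to 54.2 in the shRaly arrays, while the sums of the other lists overlapped between groups, and 1 T and NK marker and 1 red cell marker were on no array. The part of endothelial RNA in the results below was not tested. All control arrays were in 1 row of the slide and all shRaly arrays in the other, and the effect of the row cannot be told apart from that of the virus. No spot was saturated.

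The comparison asked which of these regions changed when Raly was lowered. Of the 4520 member probes that could be tested, 31 (0.686%) passed the adjusted threshold, 27 lower and 4 higher in the shRaly arrays. Over all 26934 probes tested the share was 0.698%, with 0.549% lower and 0.149% higher, so the members' share was near the background. The groups did not overlap for 416 of the 4520 member probes, against 9.52% of all probes tested. At an unadjusted p under 0.05 there were 693 member probes (15.3%) and 3883 probes in all (14.4%). The median log2 fold change was -0.09 for members and -0.03 for all probes tested, and 2906 of the 4520 (64.3%) were below 0. Without the filter on detection the members' median was 0.10, above 0, so the direction of this shift depends on the filter. That median rests in large part on levels at background. Per array, 44.6% to 54.3% of member values were surrogates, put in where a spot was not above background. Relative to the control mean of each probe, the members' median deviation was 0.04, 0.03, -0.02 and -0.05 on the control arrays and 0.01, -0.07, -0.20 and -0.09 on the shRaly arrays. The groups overlapped in this median, and shRaly replicate 3 was the lowest. Leaving out 1 array changed how many member probes passed: 7 without control replicate 1, 7 without control replicate 2, 6 without control replicate 3 and 15 without control replicate 4, and 47, 48, 10 and 5 without shRaly replicates 1, 2, 3 and 4.

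**Figure D2:**
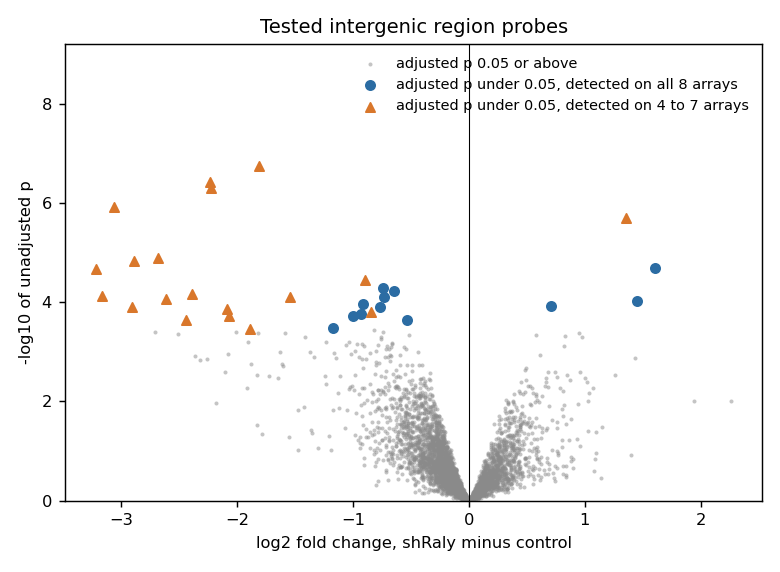
Log2 fold change (horizontal axis, shRaly minus control) against -log10 of the unadjusted limma p (vertical axis) for the 4520 tested intergenic region probes. Blue circles passed the adjusted threshold and were detected on all 8 arrays (12 probes), and orange triangles passed and were detected on 4 to 7 arrays (19 probes). The 10 falls with the largest fitted values are triangles.

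Of the 27 probes that fell, 16 were well above background on every control array (4 of 4) and on none of the shRaly arrays. They met the detection rule through the control arrays alone, so that they differ between the groups is partly set by that rule. Over all member probes, 37 had that pattern and 3 the reverse one, against 35 and 5 among the 31400 gene symbol probes. Since such a probe has only a bound in the shRaly arrays, its fall is given as at least a fold, set against the lowest signal that was still well above background on each array. The bounds ran from 1.41 to 3.19-fold. They are approximate, because a spot can lie above that lowest signal and still not be marked as well above background. Of the 64 shRaly values of these probes, 18 were surrogates, which the scanner software puts in for a spot not above background. With another background correction (normexp with an offset of 50, then quantile normalization) 10 of the 16 still passed. The log2 fold changes of the 16 were then between -0.24 and -0.68. An added offset shrinks folds at signals this low, so these sizes cannot be set against the bounds.

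Of the 16, 4 passed in each of the 8 fits that left out 1 array, and their probes are printed as examples. Since none of them was well above background on any shRaly array, these passes do not measure stability. No probe past the threshold held AATAAA.
chr8:131180267-131180326 forward: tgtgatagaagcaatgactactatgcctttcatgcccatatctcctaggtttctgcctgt
chr6:126507492-126507551 forward: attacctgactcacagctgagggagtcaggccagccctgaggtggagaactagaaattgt
chr1:72297875-72297934 reverse: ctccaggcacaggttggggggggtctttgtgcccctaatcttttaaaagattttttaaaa
chr1:38892794-38892853 reverse: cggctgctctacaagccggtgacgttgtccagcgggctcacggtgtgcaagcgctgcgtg

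The chr8 probe, of the target chr8:131178212-131180657, had the smallest adjusted p of all members (0.0025). It lay at -2.85, -2.99, -2.75 and -3.10 in the controls and at -4.76, -4.56, -4.65 and -4.98 in the shRaly arrays, a fall of at least 2.71-fold. None of its values was a surrogate. The other probe of the target was on no array. The nearest gene probe, 66.1 kb away on the same strand, was of Itgb1, the beta-1 integrin subunit, with a log2 fold change of 0.15 ± 0.10 (adjusted p = 0.54).

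The chr6 probe, of chr6:126502067-126507755, lay at -2.50, -3.15, -2.77 and -2.33 in the controls and at -4.91, -4.85, -4.95 and -4.97 in the shRaly arrays. It fell by at least 3.19-fold (adjusted p = 0.0026). Its nearest gene, Kcna5, a potassium channel gene, was on no array. Another tested probe of this chr6 target had -0.25 ± 0.15 (adjusted p = 0.50), and 3 more were on no array. The chr1:72297489-72298058 probe lay at -3.05, -2.90, -3.37 and -3.32 in the controls and at -5.20, -5.05, -5.64 and -5.64 in the shRaly arrays, a fall of at least 2.30-fold (adjusted p = 0.0027). Its neighbour Pecr, a peroxisomal trans-2-enoyl-CoA reductase, was 7.96 kb away on the same strand and had a log2 fold change of -0.01 ± 0.12. The other probe of that target was on no array. The chr1:38886199-38892924 probe lay at -3.10, -3.40, -3.08 and -3.27 in the controls and at -6.19, -5.47, -6.66 and -6.78 in the shRaly arrays, a fall of at least 2.22-fold (adjusted p = 0.0036). Of these shRaly values 2 were surrogates, and another probe of the same target had a log2 fold change of 0.16.

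The 10 falls with the largest fitted values were all of probes well above background on no shRaly array. Their shRaly values were near background and some were surrogates, so their fitted sizes give no ranking. The single probe of chr4:39443650-39443795 (reverse) lay at -2.13, -2.97, -3.47 and -4.15 in the controls and at -6.46, -5.82, -6.69 and -6.61 in the shRaly arrays. It fell by at least 2.27-fold (adjusted p = 0.020) and passed in 4 of the 8 fits without 1 array. The detected probe of chr11:33414450-33450750 (reverse), near Gabrp, fell by at least 2.70-fold (adjusted p = 0.027), and 8 of the other probes of that target were on no array. The single probe of chr7:35329490-35341191 (forward), 94.5 kb from Kctd15, fell by at least 2.45-fold (adjusted p = 0.029). A second target near Kctd15, chr7:35405125-35415223 (reverse), also held a probe that fell, by at least 2.84-fold (adjusted p = 0.038), while its other probe had -0.26 and Kctd15 itself -0.08 ± 0.12.

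The bounds of the others were as follows. The chr9:61071844-61072324 probe (forward) fell by at least 1.78-fold (adjusted p = 0.016), and another probe of its target had -0.12. The chr1:59775022-59780348 probe (forward) fell by at least 1.66-fold (adjusted p = 0.016), with the other 4 probes of the target on no array. It lay 6.80 kb from Nop58, a core protein of box C/D small nucleolar ribonucleoproteins, which had 0.07 ± 0.12. The chr19:56815544-56821403 probe (reverse) fell by at least 2.62-fold (adjusted p = 0.028). Its neighbour Adrb1, the beta-1 adrenergic receptor, was at 0.94 ± 0.33 and did not pass (adjusted p = 0.24). The chr2:71576218-71603818 probe (reverse) fell by at least 2.11-fold (adjusted p = 0.041), and a second tested probe of that target had 0.60. The chrX:96586066-96586407 probe (forward), near the lncRNA gene Gm14812, fell by at least 1.66-fold (adjusted p = 0.027).

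**Figure D3:**
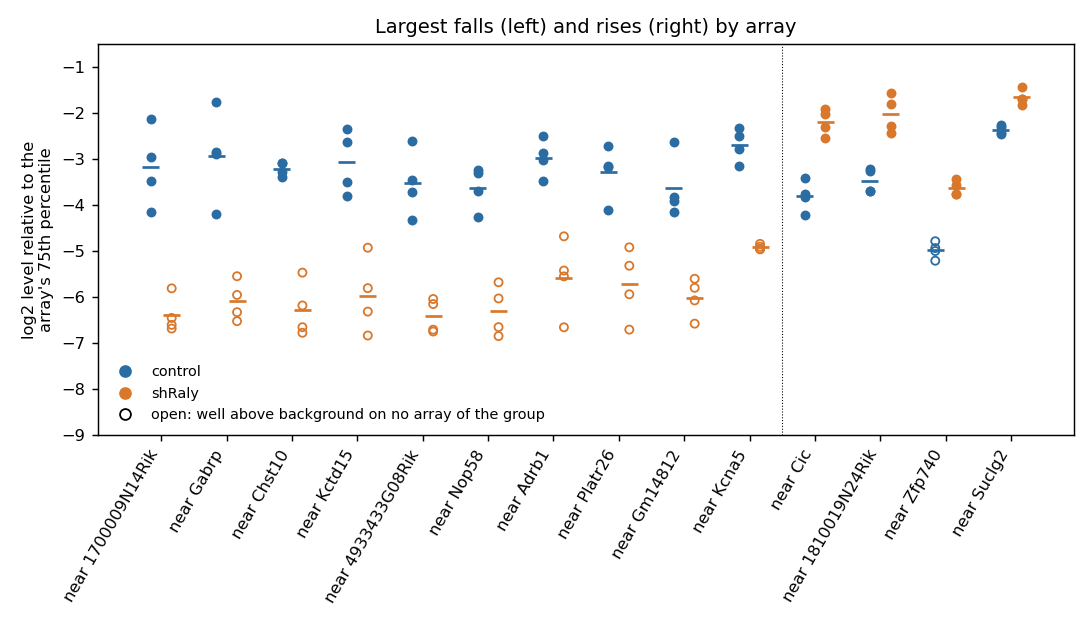
Log2 level relative to the array's 75th percentile (vertical axis) on each of the 4 control (blue) and 4 shRaly (orange) arrays for the 10 falls with the largest fitted values and the 4 rises among probes past the threshold, each named by its nearest gene, with a bar at the group mean. Open circles mark a group in which the probe was well above background on no array; this holds for the shRaly arrays of all 10 falls and for the control arrays of the probe near Zfp740.

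The 4 probes that rose are printed in the order of their fold change.
chr7:26057524-26057583 forward: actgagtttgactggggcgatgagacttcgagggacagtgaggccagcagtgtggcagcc
chr7:13541092-13541151 forward: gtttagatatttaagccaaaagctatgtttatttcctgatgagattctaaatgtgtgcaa
chr15:102033760-102033819 reverse: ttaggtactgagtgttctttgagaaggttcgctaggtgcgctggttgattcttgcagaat
chr6:95422530-95422589 reverse: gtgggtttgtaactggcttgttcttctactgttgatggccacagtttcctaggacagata

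The first, of chr7:26054813-26063725, lay at -4.22, -3.42, -3.77 and -3.82 in the controls and at -2.31, -2.03, -2.55 and -1.91 in the shRaly arrays, all higher. The rise was 3.04-fold (log2 1.61 ± 0.20, adjusted p = 0.019). The other tested probe of the target had -0.19, and the nearest gene, Cic, a transcriptional repressor, -0.22 ± 0.10. The single probe of chr7:13533925-13544525 lay at -3.70, -3.71, -3.22 and -3.26 in the controls and at -2.45, -2.28, -1.80 and -1.57 in the shRaly arrays. It rose 2.73-fold (log2 1.45 ± 0.22, adjusted p = 0.028) and passed in 2 of the 8 fits without 1 array. It did not pass with normexp (0.44, adjusted p = 0.12), and the target contains a probe of the lncRNA gene 1810019N24Rik, on the opposite strand, with 0.06 ± 0.28.

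The chr15:102032892-102033838 probe was on no control array and all 4 shRaly arrays. It lay at -5.00, -5.21, -4.79 and -4.94 in the controls and at -3.44, -3.56, -3.77 and -3.76 in the shRaly arrays, a rise of at least 1.71-fold (adjusted p = 0.0046). With normexp it had a log2 fold change of 0.13 and did not pass (adjusted p = 0.33), and the target's other probe had 0.21. The chr6:95418306-95424131 probe lay at -2.30, -2.46, -2.44 and -2.27 in the controls and at -1.82, -1.69, -1.44 and -1.70 in the shRaly arrays. It rose 1.63-fold (log2 0.71 ± 0.11, adjusted p = 0.029). Without 1 array it passed in 2 of 8 fits, and with normexp it had 0.30 (adjusted p = 0.094). This was the only rise whose target had more than 2 tested probes: all 5 were above 0, from 0.19 to 0.71. Suclg2, a succinate-CoA ligase subunit gene 2.18 kb away on the same strand, had -0.07 ± 0.15.

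Of the falls, 9 were of probes detected on all 8 arrays, and 8 of the 12 such probes that passed also did so with normexp. The target chr10:39659425-39674200, on the reverse strand, had 5 probes close together, all on all 8 arrays. They are printed in order of position.
chr10:39664431-39664490: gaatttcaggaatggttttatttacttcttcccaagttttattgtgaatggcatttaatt
chr10:39664499-39664558: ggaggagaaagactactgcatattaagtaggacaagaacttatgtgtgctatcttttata
chr10:39664632-39664691: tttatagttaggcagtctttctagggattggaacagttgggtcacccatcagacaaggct
chr10:39664692-39664751: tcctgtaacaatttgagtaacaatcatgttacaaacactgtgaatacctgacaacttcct
chr10:39664752-39664811: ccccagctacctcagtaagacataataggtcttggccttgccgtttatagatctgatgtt

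Their log2 fold changes ran from -0.80 to -0.68, and the third passed the threshold (-0.77 ± 0.12, adjusted p = 0.029). That probe lay at 0.81, 0.85, 0.98 and 0.65 in the controls and at 0.01, 0.27, 0.08 and -0.14 in the shRaly arrays, all lower. The nearest gene probe, 2.20 kb from the closest of them and on the same strand, was of the transcribed pseudogene Mfsd4b3-ps, which had 0.05 ± 0.16 (adjusted p = 0.93). Of the 8 fits without 1 array, the probe passed in 1.

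At chr7:99879368-99889978 (forward), whose nearest gene probe is of Pcf11 on the other strand, 2 probes passed. One lay at -1.11, -0.87, -0.99 and -1.30 in the controls and at -1.88, -1.86, -2.53 and -2.69 in the shRaly arrays (log2 fold change -1.17 ± 0.21, adjusted p = 0.049). All 5 tested probes of this target were below 0, from -1.17 to -0.78, and the other 5 were on no array. The 3 probes of chr1:135956616-135957485 (reverse), near Fmod, ran from -0.75 to -0.68, and 1 passed (-0.74 ± 0.11, adjusted p = 0.027). The 3 probes of chr3:121615836-121616109 (forward), about 102 kb from Arhgap29, ran from -0.68 to -0.58, and 1 passed (-0.64 ± 0.09, adjusted p = 0.026).

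A pair of overlapping forward targets, chr8:126268510-126290810 and chr8:126278269-126291621, each held 1 probe that passed, lower by 0.92 and 0.93 on the log2 scale (adjusted p = 0.029 and 0.036). They lay 7.21 and 7.31 kb from the lncRNA gene 4732419C18Rik, on the strand opposite to it, and the gene's probe had -1.02 ± 0.23 (adjusted p = 0.090). The first target had probes on both sides of 0, from -0.92 to 0.46. Between the probes that passed lie chr8:126278339-126278398, of the second target, and chr8:126278354-126278413, of the first. They were on all 8 arrays and had -0.09 ± 0.12 and -0.09 ± 0.10. Inside chr3:36280098-36347798 (reverse), near Anxa5, 5 of 7 tested probes were below 0 and 2 were above. Only 1 passed (a 2.00-fold fall, adjusted p = 0.038). That probe lay at -0.62, -0.45, -0.35 and -0.45 in the controls and at -1.49, -1.10, -1.38 and -1.90 in the shRaly arrays. At chr11:55315017-55322092 (reverse), near G3bp1, 1 probe that was well above background on only 2 shRaly arrays had -1.55 ± 0.22 (adjusted p = 0.027) and the other 4 tested ran up to 0.36. The probe that passed in chr8:41934312-41945487 (reverse) had -0.53 ± 0.09 (adjusted p = 0.041), with 3 of 4 tested below 0.

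Because probes of a target share a transcript only if the target is 1 transcript, all tested probes of each target were also averaged before the fit. Of 2294 targets, 30 passed (1.31%), 24 lower and 6 higher, against 0.919% of all 24708 targets and probes in that fit. Probes outside the set were not averaged, so these shares are unlike and their difference was not read. Of these 30, 12 rested on 2 tested probes or more and 18 on 1, and 18 also had a probe that passed alone. In this fit the chr1:135956616-135957485 target fell by 0.72 ± 0.12 (SE, adjusted p = 0.040), but it passed in 0 of the 8 fits without 1 array and not with normexp (adjusted p = 0.055). The chr10 and chr7:99879368-99889978 targets did not pass as means (-0.74 ± 0.14, adjusted p = 0.056, and -0.94 ± 0.21, adjusted p = 0.089). The count was 4, 4, 2 and 11 without control replicates 1 to 4, and 29, 28, 8 and 3 without shRaly replicates 1 to 4.

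A further 12 targets passed in this fit with no probe past the threshold in the fit of single probes. Several of them had only 1 tested probe, so nothing was averaged and only the fit around the probe differed. The 1 tested probe of chr1:94608820-94634671 (reverse), at -2.01, had an adjusted p of 0.051 alone and 0.048 here. The chr1:71939741-71947891 target (forward), whose strand pair is printed above, had 3 probes from -0.74 to -0.69 and a mean of -0.71 ± 0.13 (adjusted p = 0.048), which passed in 0 of the 8 fits without 1 array. Its mean lay at 1.37, 1.78, 1.69 and 1.31 in the controls and at 0.80, 0.95, 0.85 and 0.69 in the shRaly arrays. The nearest gene, the lncRNA gene Gm8883, was 2.51 kb away on the same strand and had -0.30 ± 0.15 (adjusted p = 0.41).

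On chromosome 18, the target chr18:38398058-38409852 (reverse) had 3 probes from -0.78 to -0.75, with a mean of -0.76 ± 0.14 (adjusted p = 0.048). It passed in 1 of the 8 fits without 1 array and not with normexp (adjusted p = 0.052). It contains the lncRNA gene 1700086O06Rik on the same strand, whose own probe fell by 1.23 ± 0.19 on the log2 scale (adjusted p = 0.029). That gene probe was well above background on only 4 of the 8 arrays, the fewest the detection rule allows, so its fitted size is approximate.

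At a locus on chr2, targets on both strands passed as means. The target chr2:143988645-143993945 (reverse) had 5 tested probes, all above 0, from 0.29 to 1.26, and a mean of 0.75 ± 0.12 (adjusted p = 0.038). The target chr2:143991240-143991597 (forward) lies inside it on the other strand, at other bases, and had 2 tested probes, at -1.42 and -0.67, and a mean of -1.04 ± 0.17 (adjusted p = 0.032). The reverse mean lay at -3.26, -3.17, -3.18 and -3.53 in the controls and at -2.77, -2.57, -2.47 and -2.35 in the shRaly arrays. The forward mean lay at -4.11, -3.43, -3.92 and -3.69 in the controls and at -5.06, -4.87, -4.55 and -4.85 in the shRaly arrays. The forward probes met the detection rule through the control arrays, so the forward value rests on shRaly levels mostly not well above background. Of the 2 tested, 1 was well above background on no shRaly array and 1 on a single one. With normexp neither passed (adjusted p = 0.11 and 0.27), and without 1 array the reverse mean passed in 1 of 8 fits and the forward mean in 0.

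**Figure D4:**
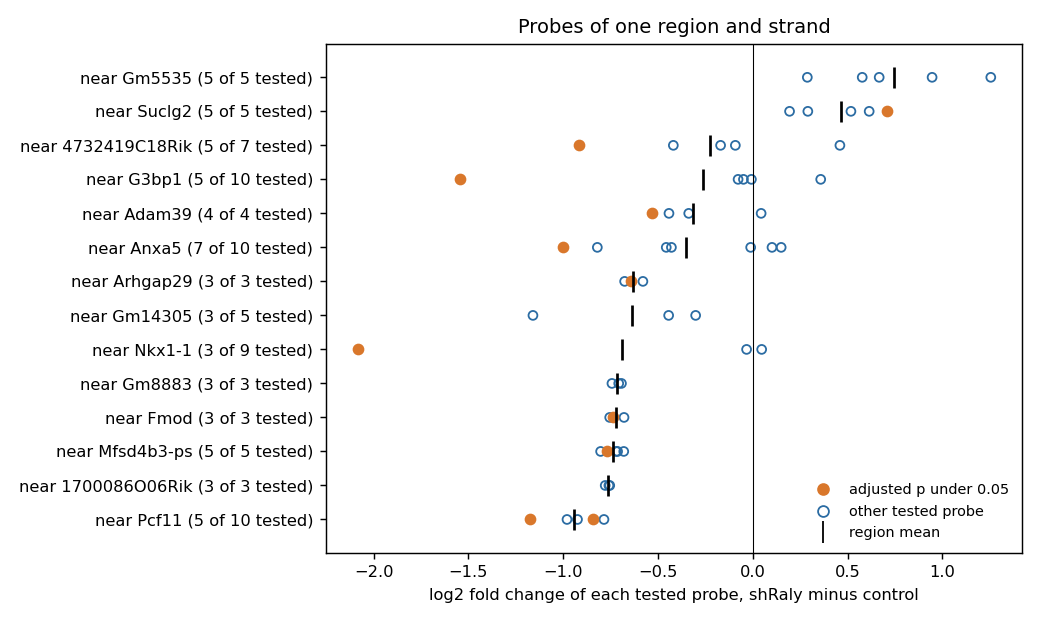
Log2 fold change (horizontal axis, shRaly minus control) of each tested probe in the 14 targets that had at least 3 tested probes and passed as a mean or held a probe past the threshold, named by the nearest gene with the number of probes tested. Filled orange points passed the threshold alone and the black bar is the target's mean in the averaged fit. All tested probes are below 0 in the targets near Pcf11, Mfsd4b3-ps, Fmod, Gm8883, Arhgap29, 1700086O06Rik and Gm14305. They are all above 0 in those near Suclg2 and Gm5535, while the targets near Nkx1-1 and G3bp1 rest on 1 probe.

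Log2 fold changes lay closer together within a target than over all members. Among members on all 8 arrays, the SD of the log2 fold change between probes of a target had a median of 0.106 over 757 targets, against 0.270 over all 3273 such probes. Taking 2 probes per target, their log2 fold changes had a Pearson r of 0.49 over the 757 targets, and the means of opposite strands of a region had 0.13 over 265 regions. These are descriptions over targets, and all points share the same 8 arrays. Of 599 targets with at least 3 tested probes, 225 had all of them below 0, 91 all above 0 and 283 both.

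The same measure was set against the nearest gene, for pairs of probes more than 60 bases apart and both on all 8 arrays. Within 2 kb and on the same strand, Pearson's r between the log2 fold changes of the region probe and the gene probe was 0.59 and Spearman's rho 0.59 over 249 pairs. On the opposite strand within 2 kb they were 0.22 and 0.11 over 100 pairs. At 2 to 10 kb they were 0.20 and 0.18 over 411 pairs on the same strand, and 0.26 and 0.24 over 190 on the opposite one. At 10 to 100 kb they were 0.04 and 0.05 over 552 pairs, and 0.10 and 0.09 over 434. Beyond 100 kb they were 0.26 and 0.13 over 95 pairs, and -0.08 and -0.12 over 71. Same-strand values were thus above opposite-strand ones within 2 kb and beyond 100 kb, and not in between. The points again share arrays, and many share a gene. None of the 696 tested member probes within 2 kb of a gene probe passed the threshold, 12 of 1067 at 2 to 10 kb did, 17 of 2264 at 10 to 100 kb and 2 of 454 beyond that, beside 0.698% of all probes tested. Of the 31 probes that passed, 23 had a nearest gene that could be tested, and none of those genes passed, a number too small to read against 0.698%.

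Cholesterol synthesis genes are the known targets of the LeXis and Raly pathway in liver, and the regions around 26 listed symbols of that pathway were examined, among them Sc4mol, the older symbol of Msmo1. Of the 24 with a placed probe, 7 had a member probe within 100 kb and 4 a detected one. No member probe lay within 100 kb of Raly or Abca1. Sqle, squalene epoxidase, fell by 1.08 ± 0.09 on the log2 scale (adjusted p = 0.0030). The nearest detected region probe, in chr15:59130091-59131239 (reverse) and 32.5 kb away, lay at -1.37, -1.46, -1.34 and -1.27 in the controls and at -1.34, -1.29, -1.33 and -1.84 in the shRaly arrays. Its difference was -0.09 with a 95% interval from -0.40 to 0.22.

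Mvd, mevalonate diphosphate decarboxylase, fell by 1.27 ± 0.12 (adjusted p = 0.0055), and the detected probe of chr8:125031410-125075960 (reverse), 73.9 kb away, had -0.04 with an interval from -0.31 to 0.23. Near Srebf2, the gene of the sterol-responsive transcription factor (-0.68 ± 0.12, adjusted p = 0.051), the probe of chr15:82037381-82048125 (reverse), 3.23 kb away, had -0.49 ± 0.25 (adjusted p = 0.41). It lay at -3.08, -3.40, -3.20 and -3.24 in the controls and at -3.39, -4.29, -4.07 and -3.13 in the shRaly arrays, which overlapped. The gene probe nearest to this region probe was not of Srebf2. It was of the protein-coding gene Shisa8, which the target contains, 0.0435 kb away on the same strand and on no array. Near Acat2 (-0.18 ± 0.10), the probe of chr17:13185488-13187031 (reverse) had 0.17 ± 0.51, with shRaly replicate 3 far above the others. The difference between a region probe and its gene was not tested.

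Of 27 well-known non-coding RNA genes, 12 had a probe inside a member target, and none of their region probes passed the threshold (smallest adjusted p = 0.12). Counted once for each listed gene that their target contains, 47 of 83 region probes on the gene's strand (56.6%) and 47 of 85 on the opposite strand (55.3%) were detected. Malat1 and Neat1 are abundant nuclear RNAs made from the reverse strand of chromosome 19. In forward targets that contain Malat1, 13 of 13 probes were detected, and in those that contain Neat1, 12 of 13, with median log2 fold changes of 0.07 and 0.17. Of these probes, 10 belong to the same long target, chr19:5771425-5848475, which contains both genes, so a probe counted here need not lie on either gene. The only detected reverse probe of that region had 0.19.

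In targets containing Tug1, a lncRNA with roles in chromatin regulation, 12 of 15 probes on its strand were detected, with log2 fold changes from -0.43 to 0.39, and 8 of 10 on the other strand, with a median of -0.37. For Airn, the antisense RNA of the imprinted Igf2r locus, 7 of 9 were detected, from -0.66 to 0.35 with a median of -0.51, and the gene's own probes had -0.45 and -0.08. For Dancr 9 of 13 were detected (-0.22 to 0.04) and for Pvt1 7 of 13 (-0.69 to 0.06). All 3 probes in the target of Norad, a cytoplasmic RNA that binds Pumilio proteins, were detected, from 0.08 to 0.14, and both on the strand of Gas5, a host gene of small nucleolar RNAs, from -0.16 to 0.27. For Mirg 3 of 16 were detected, and for Fendrr none of 5 on its own strand. Snhg3 and Tsix each had 1 detected probe on their strand, at 0.36 and 0.08.

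The 6 member probes with the highest mean level among those on all 8 arrays had log2 fold changes from 0.01 to 0.19 with SEs of 0.08 to 0.11, and none passed (adjusted p from 0.46 to 0.96). The highest, of chr1:193875525-193978800 (reverse), lay at 9.88, 9.94, 9.93 and 9.93 in the controls and at 10.05, 10.04, 9.89 and 10.07 in the shRaly arrays, with an interval of the difference from -0.10 to 0.28. That target contains a probe of Rcor3, a corepressor gene. The others were of chr14:78924115-78938125 (forward, 0.19), chr17:17481706-17482457 (reverse, 0.06), chr6:116092274-116144199 (forward, 0.10), chr14:22267795-22319045 (forward, 0.01) and chr11:22681800-22707775 (reverse, 0.06).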

How the data were processed

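RNA was measured on 8 one-colour Agilent arrays. The intensity values are those the authors deposited from Agilent Feature Extraction (11.5.1.1 per the file headers; 11.5.1.11 per the submitters' processing notes): background-subtracted processed signals, with surrogates where a spot was not above background, and flags (other) per spot. The deposited series table held the same processed signal intensity for 62976 of 62976 spots per array.

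For the present work, log2 of the processed signal was taken, each array's 75th percentile over non-control spots was subtracted, 137 to 163 flagged spots per array were set to missing, and spots of a probe were averaged. Probes well above background on at least 4 of 8 arrays, with 3 values per group, were tested with limma 3.58.1 (lmFit, eBayes) in R 4.3.3, with Benjamini-Hochberg adjustment over all 26934 probes and a threshold of 0.05. Region averages were added after seeing the data. The fit was tested on simulated data.

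Gene symbols came through RefSeq accessions (27741 probes) or symbols (3347, and 312 by older symbols). The text names up to 10 of the largest rises and falls past the threshold without overlap, 1 probe a region; the nearest detected member within 100 kb of each cholesterol gene; the 6 brightest; and members in targets containing listed non-coding RNAs. Other probes past the threshold, the strand pairs and the targets passing as means were chosen after their values were seen. Members and lists were chosen with earlier results of these data known.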

Additional observations from a re-analysis of the deposited data

Results flagged for a closer look

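Of 52 groups of 4 arrays examined, 4 held an array far from the other 3, and chance gives about 1 in 20. The region probe near Acat2 was at -1.73 on shRaly replicate 3, against -4.10 to -3.99 on the other shRaly arrays. The region probe near Sqle was at -1.84 on shRaly replicate 4, against -1.34 to -1.29. Among the brightest probes, that of chr14:22267795-22319045 was at 8.07 on shRaly replicate 2, against 7.98 to 7.99, and that of chr11:22681800-22707775 was at 7.92 on shRaly replicate 4, against at least 7.99 on the others. None of these 4 probes passed the threshold.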

How the results depend on the processing

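The count of member probes past the threshold was 31 (4 higher, 27 lower). It was 60 (55 lower) with quantile normalization, 43 with normexp (2 higher, 41 lower), 9 without a filter (1 higher, 8 lower), 18 among probes on all 8 arrays (12 lower), 50 with a trended robust eBayes (7 higher, 43 lower), and 5 to 48 without 1 array (1 to 12 higher, 4 to 41 lower). No label says that replicate numbers pair the arrays, and the correlations of same-numbered deviations were 0.05, -0.04, -0.08 and 0.14. With the replicate block the count was 16 (2 higher, 14 lower), 12 of them among the 31. Of the 31, 30 were kept with quantile normalization and 19 with normexp. With either other base for the 75th percentile, or with flagged spots kept, the count stayed within 1.5 times. Averaged targets past the threshold numbered 30, or 36 with quantile normalization, 16 with normexp and 10 with the replicate block. The median log2 fold change of members was -0.09, -0.039 with normexp and 0.10 without a filter, and -0.12 to -0.05 without 1 array. The cause of these differences was not tested.

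The detected share was 27.9%, 20.2% if all 8 arrays were required and 41.3% with any array. Regions with both strands detected numbered 401, or 265 on all 8. Member probes within 10 kb of a gene probe numbered 5467, with 2175 within 2 kb, 11792 within 50 kb and 14059 within 100 kb. Besides that median without a filter, directions turned for named probes that had not passed: near Acat2 (-0.0034 without control replicate 4, -0.41 without shRaly replicate 3, and up to 0.38 without another array), near Mvd (0.017 without control replicate 1, 0.028 without shRaly replicate 4, and down to -0.12), near Sqle (0.040 without shRaly replicate 4, and down to -0.14) and for chr14:22267795-22319045 (-0.018 with normexp; -0.0076, -0.016 and -0.0055 without control replicate 2, control replicate 3 and shRaly replicate 2, and up to 0.045). The series table equalled the processed signal and was not run separately. Signal over background limits the results: most members were at background, where folds are approximate bounds.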
